A study of Mus musculus with 14 samples.

Results

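The resident macrophages of the brain, microglia, were followed through 10 of their marker genes in neurospheres grown from different parts of the adult and embryonic mouse nervous system. They are Csf1r, Cx3cr1, Trem2, Tyrobp, Itgam, Ptprc, Cd53, Laptm5, Cd68 and Aif1. On the array these 10 genes are read by the 14 probe sets chosen here, of 45101 in all: 3 for Csf1r, 2 each for Cx3cr1 and Laptm5, and 1 for each other gene. The probe sets were chosen by gene, with their levels on these same arrays known, so the levels and differences of these 10 genes are given as a description and carry no test. All 14 were detected on at least 2 arrays and so passed the filter on low signals. A further 6 probe sets of these genes, 3 of Laptm5 and 1 each of Trem2, Ptprc and Cd53, exist on the array and were not part of the choice.

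The cultures were secondary neurospheres, cultured balls of neural progenitors that re-form after a first generation is passaged. Wild-type CD-1 mice, an outbred strain, supplied all of them, and no treatment is recorded. Adult spheres represent 3 regions with 3 arrays each: neocortex, striatum and the subventricular zone (SVZ), a stem cell layer beside the lateral ventricle. Embryonic spheres (E14.5) represent dorsal forebrain and ventral forebrain, with 2 arrays each, and spinal cord, with a single array. The labels give neither the age of the adults nor whether tissue was pooled. Nothing in them shows that replicate spheres derive from different animals or dishes. The p-values given below measure only the spread between these samples, which may be technical.

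Array medians ran from 222.1 to 334.8 signal units, and 60.2% to 68.6% of probe sets were detected on an array (detection p under 0.05). With so few arrays, their number sets the precision. Neural identity was present throughout: all 9 neural stem cell genes examined were detected on at least 1 array of each group. The embryonic forebrain arrays stood apart by sample number rather than by region. Dorsal and ventral arrays of the same number shared their deviations from the region means (r = 0.58 over the 35211 probe sets tested), and both number 2 arrays were above both number 1 arrays at 28.8% of all probe sets. The embryonic results of the 10 genes below are therefore also given for each number alone.

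Microglia arise from yolk sac precursors that enter the brain in the embryo, and they are not made by neural stem cells. They need signals through the receptor Csf1r to survive, sense neurons through Cx3cr1, and respond to lipids and debris through Trem2 and its signalling partner Tyrobp. The other genes encode leukocyte surface proteins (Itgam, Ptprc, Cd53), lysosomal membrane proteins (Cd68, Laptm5) and the actin-binding protein Iba1 (Aif1), which is the usual stain for microglia. In whole spheres, fewer microglia and less RNA per microglial cell cannot be told apart.

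As background, the bases just upstream of the start are shown for those of these genes with a match close to it. They are shown together with Cx3cr1, which had none in the window searched. Whether the letters bear on the levels of these genes was not tested. RefSeq promoters (GRCm38.p6) of 8 of the 10 genes were searched, and those of Csf1r and Tyrobp were not. The 250 bases before each start were searched on both strands for GAGGAA, the core letters bound by PU.1, the master transcription factor of macrophages. The letters were present in 7 of the 8 genes and in 23.3% of 32851 promoters. Ptprc was searched at 2 starts, so the count of genes is not quite the same measure as the share of promoters. Capitals mark GAGGAA or its complement TTCCTC in the last 100 bases before the start, printed 5′ to 3′ on each gene's own strand.
Cd53 (chr3:106790150-106790249, minus strand): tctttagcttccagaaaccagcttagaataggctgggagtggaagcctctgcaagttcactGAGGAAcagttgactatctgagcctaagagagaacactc
Laptm5 (chr4:130913216-130913315, plus strand): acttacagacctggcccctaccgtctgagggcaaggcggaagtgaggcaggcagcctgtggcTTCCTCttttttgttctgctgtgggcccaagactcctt
Itgam (chr7:128062540-128062639, plus strand): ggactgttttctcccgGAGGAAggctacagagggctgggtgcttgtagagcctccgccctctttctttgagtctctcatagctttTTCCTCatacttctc
Aif1 (chr17:35176053-35176152, minus strand): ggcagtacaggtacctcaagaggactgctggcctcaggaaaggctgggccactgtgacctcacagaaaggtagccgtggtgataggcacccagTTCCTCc
Trem2 (chr17:48346301-48346400, plus strand): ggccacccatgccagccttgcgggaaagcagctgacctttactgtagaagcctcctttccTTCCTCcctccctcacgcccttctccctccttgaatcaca
Cx3cr1 (chr9:120068297-120068396, minus strand): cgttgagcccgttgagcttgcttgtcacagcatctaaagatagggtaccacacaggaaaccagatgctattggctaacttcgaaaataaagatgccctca
In Cd53, Laptm5 and Trem2 the match began 39, 38 and 40 bases before the start, and in Aif1 7 bases before it. Itgam held a match on each strand, 84 and 15 bases upstream. Those of Ptprc (158 bases) and Cd68 (225 bases) lay further out. The AP-1 letters TGANTCA were found in Cd68 and Trem2 (2 of 8, against 6.75% of promoters), the RUNX letters TGTGGT in Cd53 and Cx3cr1 (2 of 8, against 14%) and the C/EBP letters TTGCNNAA in Cd68 (1 of 8, against 9.56%). A match is a string of letters and not a measured binding site, and its absence from this window says nothing of the factor.

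Neocortical spheres carried the highest microglial signal of the adult regions, striatal spheres a lower one, and SVZ spheres had most of these genes at background. On all 3 neocortical arrays 11 of the 14 probe sets were detected, and on no SVZ array were 10 of them detected. Every neocortical array was above every one of the 11 other arrays at 11 of the 14 probe sets, where 3.31% of all tested probe sets show the same order. This share and those like it below come from contrasts by which the genes were chosen, so nothing is read from them.

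Csf1r, the receptor for the survival factors Csf1 and Il34, had one of the clearest steps. Its brightest probe set (1419872_at) read 3977, 5235 and 6009 in neocortical samples 1 to 3, 695, 1504 and 386 in striatal samples and 8.8, 48.4 and 21.3 in SVZ samples. The 3 regions did not overlap, and the transcript was detected on every neocortical and striatal array (detection p at most 0.024) and on no SVZ array (p from 0.13 to 0.888). Neocortex exceeded SVZ by 6.42 ± 1.26 (SE) on the log2 scale, at least 81.1-fold, and striatum by 6.11-fold. Striatum was at least 13.3-fold above SVZ. Where no array of the dimmer group detected a transcript, the fold is a lower bound against the lowest detectable signal, and "at least" marks it. The dimmer probe sets of Csf1r showed the neocortical excess as well. Probe set 1419873_s_at read 745, 793 and 1467 in neocortex against 55.3, 89.3 and 180.4 in SVZ, and its striatal signals of 220.4, 179.8 and 41.8 overlapped those of SVZ. Probe set 1423593_a_at read 402 to 670.2 in neocortex, 71.2 to 204.9 in striatum and 16.2 to 69.4 in SVZ, with no overlap. The log2 difference between striatum and SVZ was 3.81 at the bright probe set and 0.16 and 1.07 at the others. No SVZ array detected any of the 3, so these values depend on the constant added before taking logs.

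Tyrobp, the adaptor that carries the activating signal of Trem2 and related receptors, was bright enough to be measured in all regions. Its signals were 17743, 20573 and 25672 in neocortex, 2339, 4394 and 4180 in striatum and 340.6, 103.9 and 234.6 in SVZ. The detection p that the authors deposited was 0.024 and 0.03 on 2 of the 3 SVZ arrays, so a low level was detected there. Neocortex stood 78.5-fold above SVZ (log2 difference 6.29 ± 0.69 SE) and 5.59-fold above striatum, and the log2 difference between striatum and SVZ was 3.81 ± 0.69 (SE).

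Trem2, the lipid-sensing receptor that pairs with Tyrobp, was detected on 2 neocortical arrays and on no other array of the study. Its neocortical signals were 427, 668.5 and 733, with detection p of 0.056, 0.014 and 0.014, so the first of them just missed the threshold. Striatal signals were 9.1, 241 and 19.5, and the middle one had a detection p of 0.304. SVZ signals lay between 15.2 and 19.1. Neocortex was at least 12.1-fold above SVZ and at least 7.58-fold above striatum, and no fold is given between striatum and SVZ because neither measured the gene. Whether Trem2 has a striatal step like that of Tyrobp cannot be read from these signals.

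Cx3cr1, the receptor for neuronal fractalkine, did not separate the regions. The first of its probe sets read 127, 228 and 8.4 in neocortex, 90.7, 43.6 and 69.6 in striatum and 53.3, 7.6 and 92 in SVZ. The second read 76.4, 203 and 64.1, then 8, 93.4 and 10.5, then 13.4, 72.6 and 17 in the same order. All 3 regions overlapped at both. The log2 differences between neocortex and SVZ were 0.48 ± 0.64 and 0.99 ± 0.71 (SE). Each probe set was detected on 1 neocortical array and on no SVZ array.

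Among the surface proteins, Ptprc (CD45, the phosphatase found on nearly all leukocytes) and Cd53 (a leukocyte tetraspanin) showed the full gradient. Ptprc signals were 1727, 3277 and 3082 in neocortex, 186, 478 and 302 in striatum and 12.8 on average in SVZ, where the lowest was 11.9. It was detected on every array of the first 2 regions with p of 0 as deposited, and on no SVZ array. Neocortex was at least 54.1-fold and striatum at least 7.24-fold above SVZ. Cd53 signals were 10746, 16476 and 18633 in neocortex, 885, 2879 and 2115 in striatum and 134 and 167 in SVZ samples 1 and 3. SVZ sample 2 was dimmer still, for a mean of 105 ± 80.4 (SD, n = 3), and no SVZ array detected it. Its log2 difference between neocortex and SVZ was 6.88 ± 0.93 (SE), at least 118-fold. Striatum was at least 15.1-fold above SVZ, and neocortex 7.82-fold above striatum.

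Itgam (CD11b), the alpha chain of the complement receptor CR3, was dim. Its signals were 121, 242 and 203 in neocortex, 5.2, 15.9 and 88.7 in striatum and 28.2, 70.4 and 40.3 in SVZ. All neocortical arrays detected it, as did the brightest striatal array (detection p of 0.011), and no SVZ array did. Neocortex was 3.60-fold above striatum and at least 2.54-fold above SVZ. Striatum and SVZ overlapped, at signals that were mostly not detected and have no order.

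Of the lysosomal proteins, Laptm5, a leukocyte protein that sorts receptors for degradation, followed the gradient at both probe sets. The brighter one (1436905_x_at) read 22694, 28741 and 35264 in neocortex, 2915, 5578 and 5199.9 in striatum and 626, 331 and 193 in SVZ, a 66.3-fold excess of neocortex over SVZ. The log2 excess of striatum over SVZ was 3.46 ± 1.07 (SE). This probe set was detected on every array of the study. The dimmer one (1426025_s_at) gave smaller steps, 7.41-fold and 1.87-fold, with signals of 730.4 to 1292 in neocortex, 185 to 245.5 in striatum and 65.1 to 129.7 in SVZ. The suffixes x and s mark probe sets whose probes can match more than 1 transcript, so part of either signal may come from another gene, which was not tested. The same holds for the chosen probe sets of Trem2 and Aif1 and for 1419873_s_at of Csf1r.

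Cd68, a lysosomal glycoprotein of phagocytes, behaved differently from Laptm5. It was detected on all 14 arrays with p of at most 0.001. Its signals were 7635, 8749 and 10607 in neocortex, 1465, 1367 and 935 in striatum and 1324, 1227 and 1580.3 in SVZ. Neocortex was 5.54-fold above SVZ and 6.64-fold above striatum, while striatum and SVZ overlapped (log2 difference -0.26 ± 0.28 SE). A sizeable Cd68 signal was thus present in SVZ spheres. Of the other genes there, Laptm5 (brighter probe set) was detected on all 3 arrays and Tyrobp on 2, and Csf1r, Ptprc, Cd53 and Aif1 were not detected.

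Aif1 (Iba1) read 1507.5, 2112 and 1933 in neocortex, 79.3, 272 and 422 in striatum and 44.2, 8.9 and 1.9 in SVZ. The dimmest striatal array did not detect it (detection p of 0.13), the other two did (0.011 each), and no SVZ array did. Neocortex was 5.26 ± 1.06 (SE) above SVZ on the log2 scale, a fold with only a lower bound, and 7.17-fold above striatum, and striatum was at least 4.60-fold above SVZ.

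**Figure D1:**
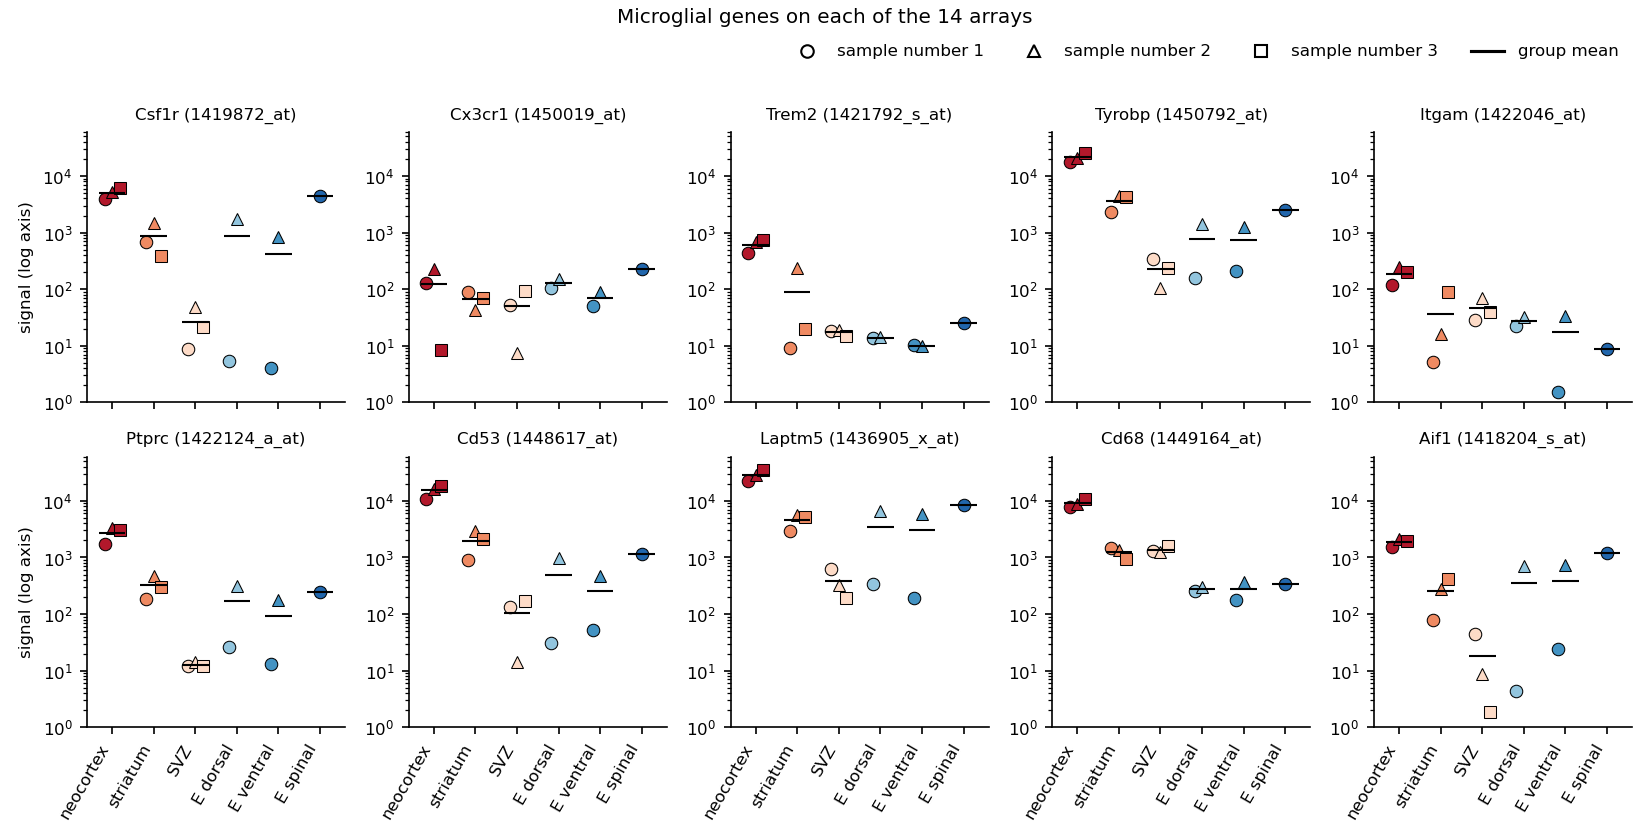
Signal on a log axis for the brightest probe set of each of the 10 genes on each of the 14 arrays, by group (E marks embryonic E14.5 spheres). Symbols give the sample number and bars the group mean; the spinal cord bar is its single array. Neocortical arrays lie above all other adult arrays for every gene but Cx3cr1, and the number 2 embryonic arrays (triangles) stand far above the number 1 arrays (circles) for Csf1r, Tyrobp, Ptprc, Cd53, Laptm5 and Aif1.

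Taking the brightest probe set of each gene, striatal arrays all lay above SVZ arrays for 6 of the 10 genes (Csf1r, Tyrobp, Ptprc, Cd53, Laptm5 and Aif1). For Cd68, Itgam, Trem2 and Cx3cr1 the arrays of these regions overlapped. By probe set, the arrays did not overlap at 12 of 14 between neocortex and SVZ (19% of all tested probe sets lie this way), at 8 of 14 between striatum and SVZ (15.2%) and at 12 of 14 between neocortex and striatum (9.34%). These 3 comparisons share arrays. Of these 4 genes Cd68 alone was detected on arrays of both regions, so the overlap of the others says nothing of a step. With the SVZ mean set to 0 and the neocortical mean to 1 on the log2 scale, the striatal mean stood at 0.61 for Tyrobp, 0.57 for Laptm5 and -0.11 for Cd68, the genes detected in all 3 regions.

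The median over the 10 genes of the log2 difference was 5.55 from SVZ to neocortex, 2.68 from SVZ to striatum and 2.67 from striatum to neocortex. The larger pseudocount moved the value from SVZ to striatum to 1.51. Over all 35211 probe sets tested the corresponding medians were -0.16, -0.08 and -0.10. Within same-numbered samples the neocortical excess over SVZ was 4.52, 5.80 and 6.04, and the striatal excess was 1.30, 3.21 and 2.94. The lowest striatal value belongs to sample number 1, which was also the dimmest striatal array at 9 of 14 probe sets. Neocortical sample 1 was the dimmest of its region at 12 of 14 probe sets. These dim arrays still lay above SVZ at 10 of 10 genes in neocortex and 8 of 10 in striatum within number 1.

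**Figure D2:**
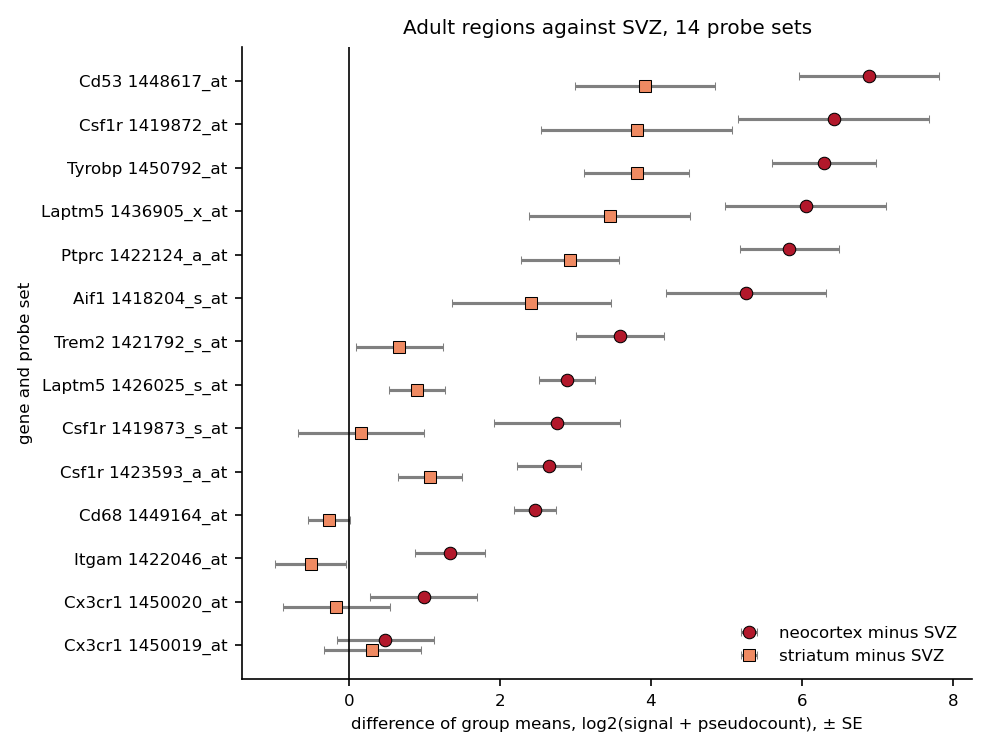
Difference of group means in log2(signal + pseudocount) for each of the 14 probe sets, neocortex minus SVZ (circles) and striatum minus SVZ (squares), with the SE of the 6-group model as bars. Neocortical differences run from 0.48 to 6.88; striatal differences run from -0.51 to 3.92 and lie near 0 for Cd68, which was detected throughout, and for Itgam and Cx3cr1, which mostly were not.

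In embryonic forebrain spheres the microglial genes were present on the number 2 arrays and largely missing from the number 1 arrays. Csf1r read 5.4 (dorsal) and 4.0 (ventral) on the number 1 arrays, with detection p of 0.888 and 0.805 as deposited for signals of these sizes, and 1709 and 843 on the number 2 arrays. Aif1 read 4.3 and 24 against 704 and 730 in the same order, and Ptprc 26.7 and 12.9 against 309.6 and 176. In both regions the number 2 array was the only one that detected these 3 genes.

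The bright genes showed the same split above a low floor. Laptm5, at its brighter probe set, read 338 and 189 on the number 1 arrays and 6693 and 5873 on the number 2 arrays. Tyrobp read 158 and 207 against 1409 and 1266, and Cd53 read 30.8 and 52.6 against 965 and 466.5. In all, both number 2 arrays exceeded both number 1 arrays at 12 of the 14 probe sets, against the 28.8% of all probe sets given above.

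The number 2 arrays were not a copy of any adult region. Their mean Aif1 signal of 717 was above the striatal mean of 258, and their log2 signal was also above striatum for Csf1r (by 0.56) and Laptm5 (by 0.40). It was lower for Ptprc (-0.44), Cd53 (-1.47), Tyrobp (-1.49) and Cd68 (-1.93). The number 1 arrays were near the SVZ mean for Aif1 (-0.24), Tyrobp (-0.33) and Ptprc (0.05), and 0.85 below it for Csf1r, all at or close to background.

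Trem2 and Itgam were not detected on any embryonic array, number 2 and spinal cord included. Embryonic Trem2 signals were 13.6 and 14.3 in dorsal, 10.2 and 9.8 in ventral forebrain and 25.1 in spinal cord. Itgam signals were 22.6, 32.2, 1.5, 34.1 and 8.9 in the same order. Cd68 was detected on every embryonic array but at 252, 295, 176, 374 and 338, below all 9 adult arrays, whose lowest signal was 935. It was the single one of the 14 probe sets whose adult arrays all lay above the embryonic forebrain arrays (9.36% of all tested probe sets lie this way). Its log2 difference between adult and embryonic forebrain was 3.19 ± 0.20 (SE), and that between SVZ and embryonic forebrain was 2.45 ± 0.26 (SE). SVZ arrays all lay above the embryonic forebrain arrays at 2 of the 14 probe sets, Cd68 and the undetected Trem2 (18.1% of all tested probe sets lie this way).

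The single spinal cord array, which has no replicate, detected 12 of the 14 probe sets, all but Trem2 and Itgam. Csf1r read 4374 there, inside the neocortical range of 3977 to 6009, and Aif1 read 1223. Both probe sets of Cx3cr1 had their highest signal of the study on this array, 232 and 243 (detection p of 0.038 and 0.019). Tyrobp (2483), Cd53 (1132) and Ptprc (249.7) were within the striatal range. Laptm5 (8465, brighter probe set) was above its striatal range of 2915 to 5578. Every neocortical array was above the spinal cord array for Aif1, Tyrobp, Cd53, Ptprc and Laptm5, but not for Csf1r or Cx3cr1.

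Over the 10 genes, the adult minus embryonic forebrain comparison therefore depends on which embryonic arrays enter it. The median log2 difference was 1.65 with both numbers, 3.16 against number 1 alone and 0.59 against number 2 alone. For SVZ against embryonic forebrain it was -0.90 with both, 0.47 against number 1 alone and -2.39 against number 2 alone. Most of the 10 genes were at or near background in SVZ and on the number 1 arrays, so nothing is read from the sign of 0.47. Over all tested probe sets the medians of the 2 comparisons were 0.01 and 0.08.

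Markers of blood vessels and blood moved with the same arrays, and those of border macrophages only in part. The summed signal of 7 endothelial genes was 236 and 396 on the number 1 embryonic forebrain arrays, 5405 and 8093 on the number 2 arrays and 9105 in spinal cord, and 7 of 7 were higher on both number 2 arrays. Cldn5, a tight junction protein of brain endothelium, read 9 to 12.6 on number 1 and 1864 to 2396 on number 2 arrays. Kdr, the main VEGF receptor of endothelium, read 43.6 to 120.9 and 1278 to 2096.0. The 6 mural cell genes summed to 1072 and 2364 on number 1 and to 10226 and 10741 on number 2 arrays, with 5 of 6 higher. Border macrophage genes, 7 in all, summed to 349.7 and 448.5 on number 1 arrays. On number 2 arrays the sum was 805.4 in ventral and 4250.5 in dorsal forebrain, and 3 of 7 genes were higher on both. Of all tested probe sets 28.8% were higher on both number 2 arrays, beside which these counts are to be read. Alas2, the haem synthesis enzyme of red cell precursors, read 164 and 178 against 639 and 1151.

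Most of the neural stem and astrocyte genes examined were lower on the number 2 arrays. Egfr, a receptor of proliferating progenitors singled out after its values were seen, read 6910 and 8237 on number 1 arrays, 122 and 279 on number 2 arrays and 633 in spinal cord. Of the 9 stem cell genes 7 were lower on both number 2 arrays, and of 6 astrocyte genes 5 were. Within a region, the number 2 array was the lower at 52.6% (dorsal) and 52.0% (ventral) of all tested probe sets. The share lower on both number 2 arrays was not computed, so nothing is read from these counts. Among the adult arrays the endothelial sum was 795 to 1081 in neocortex, 779 to 1036 in striatum and 1386 to 2130.4 in SVZ, but most of the SVZ sum came from Flt1, a VEGF receptor. Flt1 read 1057 to 1831 in SVZ and 71.1 to 247.1 in neocortex, and it was the 1 endothelial gene of 7 that passed between these regions (log2 difference -3.50 ± 0.68 SE, limma adjusted p = 0.00665). Of all tested probe sets 10.5% passed there. Cldn5 went the other way without passing, at 209.8 to 243.2 in neocortex, 46.4 to 61.1 in striatum and 13.6 to 67.3 in SVZ (adjusted p = 0.468), and the list median was 0.46. The part of these other cell types in the adult and embryonic differences was not tested.

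**Figure D3:**
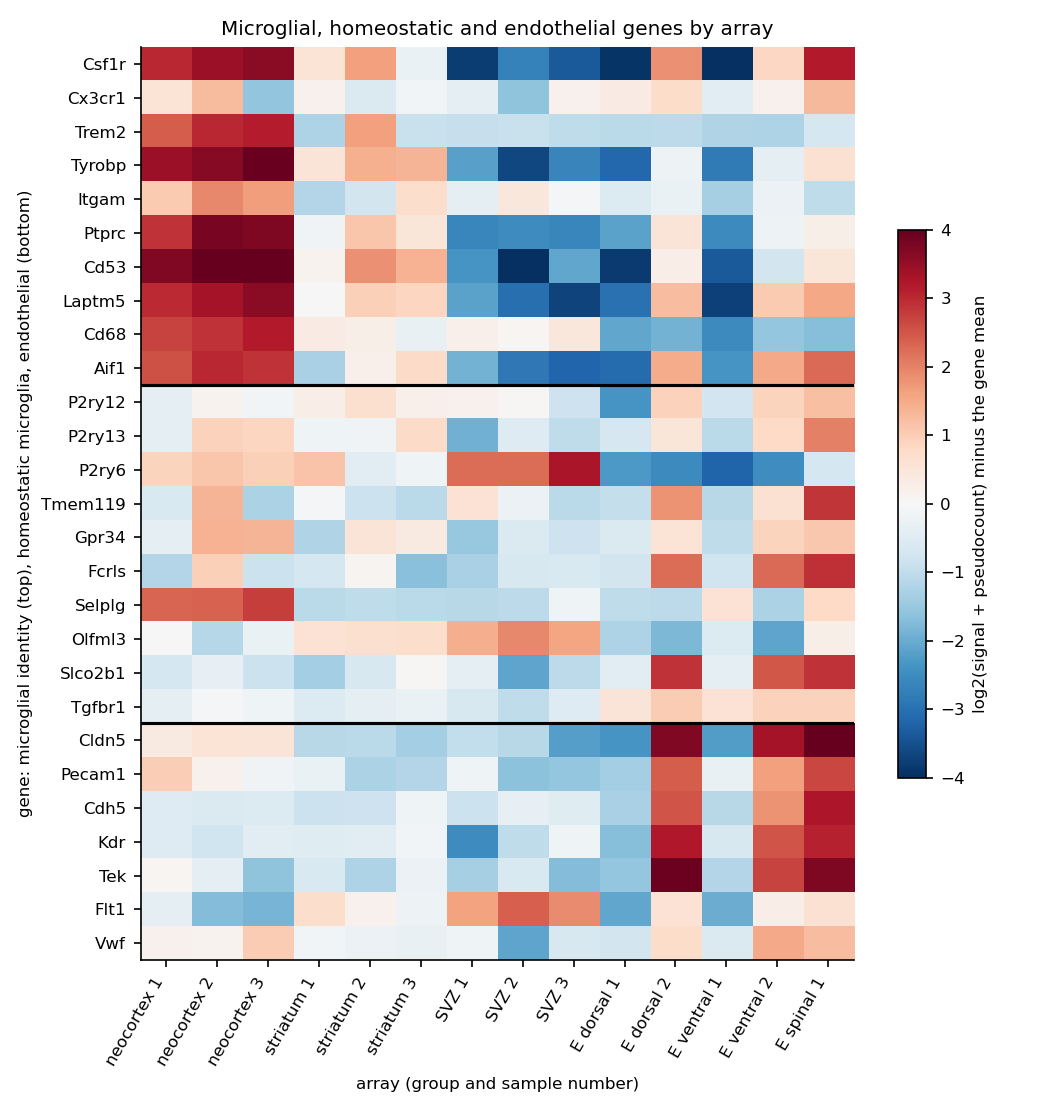
Log2(signal + pseudocount) minus the mean over 14 arrays for each gene (red above, blue below, colours capped at 4 in either direction), with the 10 microglial identity genes at the top, 10 homeostatic microglial genes in the middle and 7 endothelial genes at the bottom. Most identity genes are high on the 3 neocortical arrays, of the homeostatic genes Gpr34 and Selplg peak on a neocortical array, and the endothelial genes are high in spinal cord and on both number 2 arrays of embryonic forebrain.

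Genes that work with these 10 were then examined in 5 lists of myeloid genes (62 genes listed, 53 tested). These genes are not among the 10 and were run through limma, adjusted over all 35211 probe sets. Their lists were also chosen with earlier results of these data known. The counts and p-values of these and all other gene lists are therefore a description and not an independent test. Between neocortex and SVZ 29 of the 53 rose and 2 fell in neocortex, where 10.5% of all probe sets were called, 4.3% higher and 6.21% lower. The median log2 difference was 1.79, against -0.16 over all probe sets. Among the 53, Cd37, Ptpn6, Selplg and Cyth4 were detected on neocortical arrays alone. They passed the filter on low signals only through that region, so a neocortical rise of theirs is no support.

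Leukocyte surface genes changed most uniformly, 10 of 10 rising in neocortex over SVZ with a list median of 3.49. The 10 include Cd37, which passed the filter only through neocortex. Cd84, an adhesion receptor of the SLAM family, read 1969 to 2876 in neocortex, 258 to 429 in striatum and 51.9 to 94.3 in SVZ (log2 difference 4.44 ± 0.35 SE, limma adjusted p = 1.7e-05). Cd180, a Toll-like receptor homologue, differed by 4.65 ± 0.60 (SE, adjusted p = 0.000443). Csf2rb, the common beta chain of the GM-CSF receptor, differed by 3.89 (adjusted p = 0.000178), and Cd48, a SLAM family ligand, by 3.80 (adjusted p = 5.4e-05).

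Of 12 genes for integrins and the leukocyte cytoskeleton 9 rose. Itgb2, the beta chain that pairs with Itgam to form CR3, read 2820 to 3446 in neocortex, 366 to 614 in striatum and 211.5 to 546 in SVZ (log2 difference 2.92 ± 0.45 SE, adjusted p = 0.00136). Like Itgam, it was not detected on any embryonic array. Arhgdib differed by 5.31 ± 0.41 (SE, adjusted p = 1.5e-05) and Lcp1, the leukocyte actin bundler L-plastin, by 5.21 ± 1.10 (SE, adjusted p = 0.0102). Nckap1l, the blood cell subunit of the WAVE complex, differed by 4.99 (adjusted p = 0.000109) and Itgax (CD11c) by 3.69 (adjusted p = 6.1e-05). Itgal, the alpha chain of LFA-1, differed by 0.28 and did not pass (adjusted p = 0.687).

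Of 11 genes of the ITAM signalling path that runs through Tyrobp, 6 rose. Fcer1g, the sister adaptor of Tyrobp, read 4598 to 7324 in neocortex, 465.5 to 841 in striatum and 103.5 to 152 in SVZ (log2 difference 5.08 ± 0.50 SE, adjusted p = 6.1e-05). The adaptor Fyb differed by 4.32 (adjusted p = 0.000754), the exchange factor Vav1 by 2.84 (adjusted p = 0.00248) and the phosphatase Ptpn6 by 2.23 (adjusted p = 0.00745). Ptpn6 passed the filter only through neocortex. Syk, the kinase that docks on phosphorylated Tyrobp, differed by 1.82 ± 0.73 (SE) and did not pass (adjusted p = 0.131). Syk signals were 577 to 925 in neocortex and 427 to 1002 in striatum, so these regions overlapped.

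Of 10 myeloid transcription factors 3 rose. Spi1, which encodes PU.1, read 228 to 295 in neocortex, 83.2 to 147 in striatum and 51.8 to 53.3 in SVZ (log2 difference 1.64 ± 0.46 SE, adjusted p = 0.0374). Irf8, a partner of PU.1, differed by 1.79 (adjusted p = 0.0124) and Fli1, an ETS factor of blood and endothelium, by 3.61 (adjusted p = 0.0427). None of the 3 calls was kept throughout: those of Spi1 and Fli1 did not hold in 7 of the 15 alternatives each, where adjusted p reached 0.1 and 0.131, and that of Irf8 in 3, where it reached 0.0579.

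Against embryonic forebrain, 28 of the 53 genes rose and 4 fell in the adult spheres of all 3 regions, where 41.2% of all probe sets were called, 21.6% higher and 19.6% lower. In SVZ spheres alone 10 rose and 5 fell, where 37.1% of all probe sets were called, 21.3% higher and 15.8% lower. Itgb2 was among those that rose in SVZ over embryonic forebrain (log2 difference 3.21 ± 0.42 SE, adjusted p = 8.2e-05), and Arhgdib among those that fell (-2.75 ± 0.39 SE, adjusted p = 0.000152). Arhgdib read 59.7 to 122.5 in SVZ, 406.7 and 658.5 on the number 1 embryonic forebrain arrays and 1147 and 1210 on the number 2 arrays, so SVZ lay below both numbers.

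Striatum differed from SVZ in fewer of these genes. Of the 53, 2 rose and 1 fell, where 2.31% of all probe sets were called, 1.7% higher and 0.611% lower. They were Arhgdib (log2 difference 2.40, adjusted p = 0.0123), Cd84 (1.76, adjusted p = 0.0227) and P2ry6 (-2.50, adjusted p = 0.0115). These calls did not hold in 3, 5 and 3 of the 15 alternatives, where adjusted p reached 0.0809, 0.137 and 0.08. The call count was 0 without striatal sample 2 or without striatal sample 3, 1 without SVZ sample 1, and 8 with only these regions in the model. Between neocortex and striatum 19 rose and 0 fell, where 0.471% of all probe sets were called, 0.417% higher and 0.054% lower, and 9 of the 19 were leukocyte surface genes. That count was 10 to 12 when neocortical sample 2 or 3 or any striatal sample was left out.

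**Figure D4:**
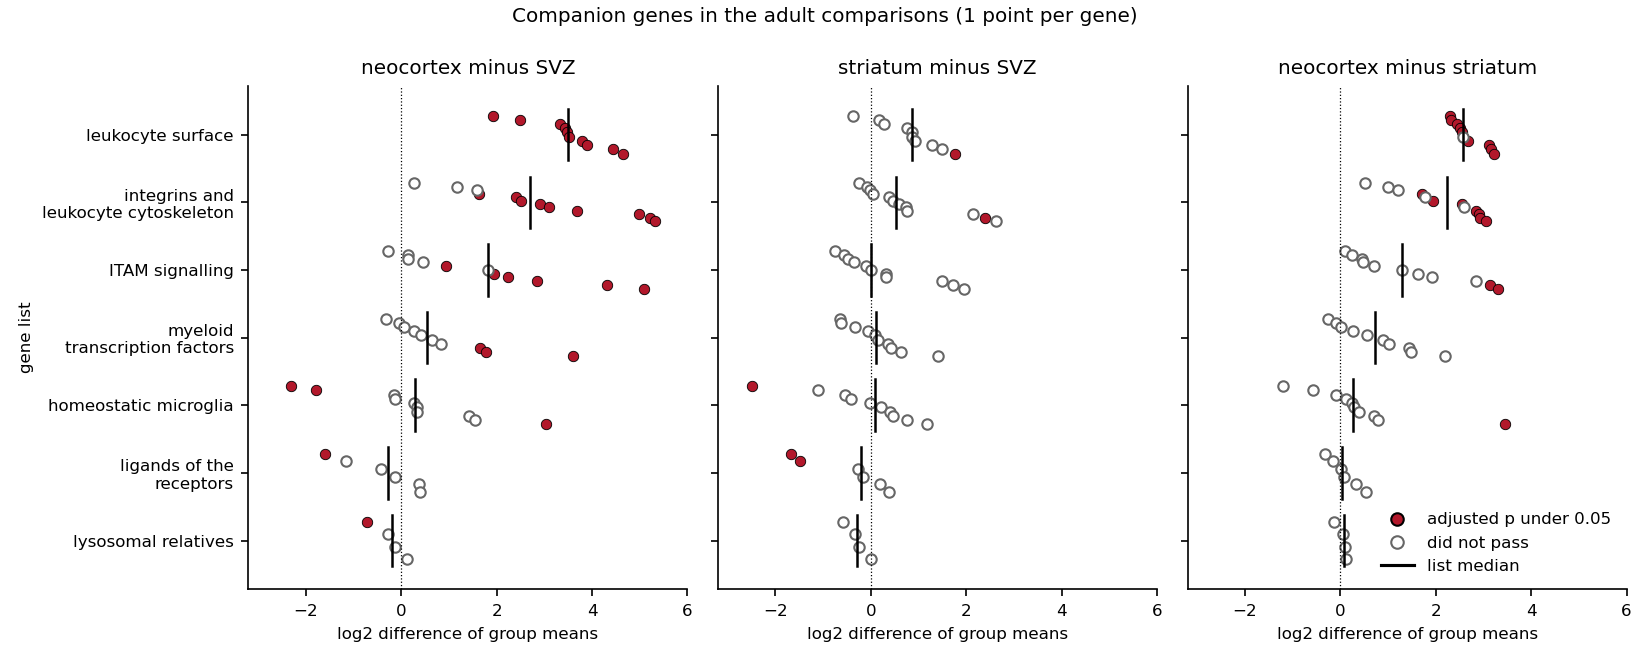
Log2 difference of group means for each tested gene of 7 lists in the 3 adult comparisons; filled points passed limma at adjusted p under 0.05 and vertical bars are list medians. Leukocyte surface genes all lie to the right of 0 in neocortex minus SVZ, and the ligand and lysosomal lists lie around 0.

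Homeostatic genes, a list used to tell resting microglia from other macrophages, went both ways. Of 10 tested 1 rose, 2 fell and 7 did not pass between neocortex and SVZ, and the list median was 0.30 against -0.16 over all probe sets. As above, 4.3% of all probe sets were called higher and 6.21% lower. Selplg, the P-selectin ligand, rose (354 to 492 against 8.8 to 41.6 signal units, adjusted p = 0.00102), but it passed the filter only through neocortex. Olfml3, a secreted matrix protein, fell by 2.32 on the log2 scale (adjusted p = 0.0022) and P2ry6, the UDP receptor of phagocytosis, fell by 1.79 (adjusted p = 0.0186). Both were brightest in SVZ spheres, where Csf1r, Ptprc and Aif1 were not detected and Cd68, Laptm5 (brighter probe set) and Itgb2 were detected on every array. Tgfbr1, also on this list, was detected on every array. Which cells gave these signals was not tested. The call of P2ry6 did not hold in 4 of the 15 alternatives, where adjusted p reached 0.0843.

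P2ry12, the ADP receptor of resting microglia, read 101 to 160 in neocortex, 168 to 236 in striatum and 68.1 to 163 in SVZ (log2 difference between neocortex and SVZ -0.12 ± 0.67 SE, adjusted p = 0.932). P2ry13, a related receptor, read 74.8 to 219.8 in neocortex, 87.9 to 192.8 in striatum and 7 to 64.6 in SVZ (log2 difference 1.42 ± 0.55 SE, adjusted p = 0.119). P2ry12 and P2ry13 were highest in spinal cord, at 359 and 501. Gpr34, a lysophospholipid receptor named after its values were seen, read 50.5 to 241 in neocortex, 18 to 118.6 in striatum and 8.7 to 41.6 in SVZ (log2 difference 1.56 ± 0.62 SE, adjusted p = 0.129). It was detected on 3, 2 and 0 of the 3 arrays of these regions. Of the 10 homeostatic genes 6 had their highest array in spinal cord or among the number 2 embryonic forebrain arrays. Among those 6, also chosen by their values, Tmem119 read 585 and Fcrls 803 in spinal cord, where neocortical signals reached 186.5 and 182. No adult array detected Tmem119. Both number 2 embryonic forebrain arrays were above both number 1 arrays for 7 of the 10 and below them for 2, where 28.8% of all tested probe sets lie above.

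Ligands of these receptors did not follow the gradient. Csf1 read 3245 to 5043 in neocortex, 3602 to 4413 in striatum and 2175 to 3574 in SVZ, and neither it nor Il34, the other ligand of Csf1r, passed in any comparison of adult regions. Clu, which Trem2 binds, fell by 1.60 on the log2 scale in neocortex (adjusted p = 0.00304) and by 1.68 in striatum (adjusted p = 0.01) against SVZ. Apoe, another Trem2 ligand, fell by 1.48 in striatum (adjusted p = 0.0474) and was 1.15 lower in neocortex without passing (adjusted p = 0.0542). Against embryonic forebrain all 6 ligand genes, with Cx3cl1 and Icam1, rose in adult spheres, with a median of 2.05. Of all tested probe sets 21.6% were called higher in this comparison. Apoe differed most, by 4.05 (adjusted p = 2.8e-07).

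Lysosomal relatives of Cd68 and Laptm5 that most cells express showed no neocortical rise. Lamp1 read 37026 to 40055 in neocortex, 32032 to 35359 in striatum and 35796 to 37868 in SVZ. Of Lamp1, Lamp2, Laptm4a and Laptm4b, 0 rose between neocortex and SVZ and Laptm4a fell by 0.71 (adjusted p = 0.0101), where 4.3% of all probe sets rose and 6.21% fell. All 4 rose in adult over embryonic forebrain spheres, the direction of Cd68, where 21.6% of all probe sets were called higher.

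Other myeloid cells share most of the 10 genes, and their own markers were read beside them. Of 7 genes of border-associated macrophages, which line the brain's surfaces and vessels, 3 rose in neocortex over SVZ. In this comparison 4.3% of all tested probe sets were called higher and 6.21% lower. The summed signal of the 7 was 5718 to 7790 in neocortex, 1275 to 1994 in striatum, 308 to 754 in SVZ and 4367 in spinal cord. Ms4a7 read 3000 to 3908 in neocortex, 246 to 418 in striatum and 33.7 to 84.5 in SVZ (log2 difference 5.02, adjusted p = 1.2e-05), and Mrc1, the mannose receptor, differed by 4.50 (adjusted p = 0.00933). Cd163, Lyve1, Pf4 and F13a1 did not pass. On embryonic forebrain arrays the sum differed by sample number, as given above. Ccr2, a receptor of blood monocytes, read at most 55.5 in neocortex and was detected on 1 of 3 arrays. Of 4 granulocyte and mast cell genes tested 1 rose, S100a8 (412 to 1449 against 18.3 to 96.3 signal units, adjusted p = 0.00329), the arrays of the other genes overlapped and the list median was -0.09. Neither of the 2 lymphoid genes tested passed. The part of border macrophages and of cells expressing S100a8 in the signal of the 10 genes was not tested.

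Neural markers also differed between neocortex and SVZ spheres. Of 6 astrocyte genes 4 fell and 1 rose in neocortex, of 9 stem cell genes 4 fell, and of 8 oligodendrocyte lineage genes 3 rose. Of all tested probe sets 4.3% rose and 6.21% fell. Their part in the microglial difference was not tested.

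Outside the 10 genes, the probe sets whose log2 profile was most like the mean of the 10 over the 14 arrays were again genes of macrophages. They were led by Fcer1g (Pearson r = 0.981), the Fc receptor Fcgr3 (0.972), the cytoskeletal adaptor Plek (0.970), the transcription factor Tfec (0.970), Ms4a6d (0.969) and the complement receptors C3ar1 (0.967) and C5ar1 (0.966), with Ctss, Fyb and Lcp1 after them (0.962 to 0.954). The arrays share groups, so these values describe a shared pattern across 6 groups and are not a test. Among the 10 genes themselves the correlation with their mean was 0.982 for Ptprc, 0.975 for Cd53 and 0.970 for Tyrobp, and it was 0.208 for Cx3cr1. Once group means were subtracted, the 10 most similar probe sets over 13 arrays were led by Tm6sf1 (0.979), Apcdd1 (0.976) and Rbfox2 (0.976), and Fli1 was the only one of the myeloid lists among them. The remaining deviations are mostly those between the embryonic sample numbers.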

How the data were processed

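Each of the 14 RNA samples was hybridised to a one-colour Affymetrix array, the Mouse Genome 430 2.0. The authors deposited a linear intensity (Signal) for each probe set and array and a detection p-value, per the file headers. The scanner software and the scaling target: not given in the sources used here. Columns of the table holding detection p-values name a group and no replicate, so detection is given per group or beside the signal in the same table.

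After 27 was added (0.1 times the median array median), log2 values were taken and each array was centred on its median. The 64 control probe sets were left out, and 35211 probe sets with detection p under 0.05 on at least 2 arrays were tested. Folds on this scale understate the change of dim transcripts. One limma 3.58.1 model in R 4.3.3 with 6 group means, a variance trend and Benjamini-Hochberg adjustment gave differences, SEs and p-values, two-sided. The spread between embryonic sample numbers enters the shared SE.

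Genes come from the platform annotation, updated by Entrez identifier to RefSeq names, with a gene read by its brightest probe set. Some listed genes were not analysed here. The members and lists were chosen with earlier results of these data known. In each list, named genes are the first 2 and up to 4 called genes with the largest neocortex to SVZ difference without overlap. In lists of 8 or fewer any gene could be named. The genes most like the members are the 10 probe sets of other genes with the highest correlation. The fit was tested on simulated data. Same-numbered neocortical and striatal samples shared deviations (r = 0.25, 0.11 and 0.11). The model has no term for sample number, so its SEs and p-values ignore any pairing. Sample number was a model term only in the replicate block alternative given below. Per the file headers, array names carry 3 tags, each shared by 1 array of every adult region. One dorsal and one ventral embryonic array share a tag, and the other pair and the spinal cord array share a final letter. What the tags mark is not given in the sources used here. Same-numbered samples gave r = 0.03, 0.06 and 0.04 for SVZ with neocortex and 0.15, 0.13 and 0.05 for SVZ with striatum.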

Additional observations from a re-analysis of the deposited data

How the results depend on the processing

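The median log2 difference of the 10 genes kept its direction in the adult comparisons under all 15 alternatives (another pseudocount, scaling, detection filter, probe set rule or model, or 1 array left out). Leaving out 1 array gave 5.30 to 5.77 for neocortex minus SVZ, 2.46 to 3.07 for striatum minus SVZ, 2.39 to 2.89 for neocortex minus striatum, 0.95 to 2.46 for adult minus embryonic and -1.77 to -0.30 for SVZ minus embryonic forebrain. The larger pseudocount gave 4.06 for neocortex and 1.51 for striatum against SVZ, and averaging probe sets gave 3.92 for neocortex. Why these values were lower was not tested. With embryonic number 1 alone, chosen after the data were seen, the values were 3.16 (adult) and 0.47 (SVZ), and with number 2 alone the SVZ value was -2.39. With the sample number as a replicate block the myeloid lists gave 35 calls for neocortex minus SVZ, 5 for striatum minus SVZ and 19 for neocortex minus striatum, against 31, 3 and 19 without it. For striatum minus SVZ the count was 8 with only these regions modelled and 0 to 4 with 1 array left out. For neocortex minus striatum it was 11 with the smaller pseudocount and 10 to 14 with 1 array left out. The cause of these changes in count was not tested. For neocortex minus SVZ it was 25 to 28 with 1 array left out. Values near the pseudocount of 27, as for Trem2, Itgam and Cx3cr1 outside neocortex, carry no order.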
